A study of Homo sapiens with 2 samples.

Results

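The 42 genes described here drive entry into S phase and copy the genome: the MCM helicase and the factors that load and fire it, the sliding clamp and its loader, the replicative polymerases, deoxynucleotide synthesis, G1/S cyclins, E2F factors, and the proteins that restore chromatin behind the fork. They were chosen by gene symbol, with earlier results of these data known. Their values are those of the probe sets that the platform annotation assigns to one of these genes alone. All 42 were on the array, through 82 probe sets, out of 19775 genes that had any such probe set. RNA came from outgrowths of embryoid bodies made from HUES9, a human embryonic stem cell line. An embryoid body is a floating aggregate in which such cells start to differentiate.

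Both conditions began with HUES9 cells at passage 32, which spent 10 days as embryoid bodies and were then plated on fibronectin in chemically defined medium. SB-OG cultures had SB-431542, which blocks the kinases of the type I TGF-β, activin and nodal receptors, at 10 µM in the embryoid body stage and at 1 µM in the outgrowth stage. Control-OG cultures had 0.01% DMSO, the solvent. At outgrowth passage 5, 3 samples of a condition were mixed and read on 1 Affymetrix array, so n = 1 per condition. No value below has a replicate check, an error between cultures or a p-value. Of 10 markers of the starting pluripotent cells, 9 were on the array. By brightest probe set, NANOG, LIN28A, LIN28B, DPPA4, ZFP42 and PRDM14 were under background in both conditions. Another probe set of DPPA4 passed background on at least 1 array, with a difference of 0.41 on the log2 scale. SOX2, which neural progenitors also express, was under background at 14.2 in control-OG and was 147 in SB-OG (at least 4.59-fold higher, and -0.07 on the log2 scale by its other probe set). DNMT3B was 120 and 149, and UTF1 was 34.6 and then under background. The 9 markers summed to 242 and 379.

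Before S phase, CDC6 and CDT1 help place the MCM2-7 ring on origins. Cyclin-dependent kinases and DDK then fire these origins, with CDC45, GINS and MCM10 turning the ring into a working helicase. Many of the genes are copied into RNA as cells pass from G1 into S, when E2F factors are freed from the retinoblastoma protein, so their RNA marks cycling cells. TGF-β is known as a brake on G1 in many epithelial cells, while its effect on mesenchymal cells varies.

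Because E2F factors are known to bind near the start sites of many genes of this kind, the letters at the members' starts are shown first. RefSeq windows of 300 bases (GRCh38.p14, 250 before and 50 after each annotated start) were found for 37 of the 42 genes; MCM4, MCM5, GINS4, CCNE2 and E2F8 had no entry. The E2F letters searched were TTTCCCGC, TTTGGCGC, TTTCGCGC and TTTGCCGC on both strands. TTTCGCGC overlaps its own reverse form in longer runs such as that of MCM2. Of the 37 genes, 21 (56.8%) held such a match, against 3.99% of the 27305 genes in the table and 6.49% of 10223 genes measured here with an entry. The members were picked as replication and G1/S genes, so their higher share describes the choice of genes. CCAAT, on either strand, was in 54.1% of the 37 and 39.7% of all genes. The letters TTTGAA and TTCGAA, an element of late cell cycle promoters, were in 5.41% and 19.5%. A match is a run of letters and not a measured binding site.

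The stretches below show the 160 bases before the start of the 5 members with an entry and the largest differences between the arrays, plus PCNA and MCM6, chosen after their values were seen. Capitals mark E2F letters, except in MCM10, which has none in its window and where they mark CCAAT. The stretches lie at chr1:23531234-23531393 (minus strand, E2F2), chr10:13161398-13161557 (plus, MCM10), chrX:24693758-24693917 (plus, POLA1), chr19:4909341-4909500 (plus, UHRF1), chr11:65261802-65261961 (plus, POLA2), chr20:5126623-5126782 (minus, PCNA) and chr2:135876444-135876603 (minus, MCM6). UHRF1 has 3 annotated starts, of which 2 have a match in the 160 bases before them, and the first of these in the table is shown. PCNA has 2 starts, and the 1 with a match before it is shown.
E2F2: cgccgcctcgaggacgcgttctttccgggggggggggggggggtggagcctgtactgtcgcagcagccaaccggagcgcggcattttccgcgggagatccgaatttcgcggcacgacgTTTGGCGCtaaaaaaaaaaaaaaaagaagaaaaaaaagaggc
MCM10: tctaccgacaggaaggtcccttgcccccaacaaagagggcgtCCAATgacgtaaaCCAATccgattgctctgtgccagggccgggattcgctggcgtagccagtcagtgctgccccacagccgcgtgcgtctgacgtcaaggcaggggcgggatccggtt
POLA1: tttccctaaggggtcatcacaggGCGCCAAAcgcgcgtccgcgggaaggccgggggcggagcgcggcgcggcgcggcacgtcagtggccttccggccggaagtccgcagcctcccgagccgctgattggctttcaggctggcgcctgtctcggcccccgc
UHRF1: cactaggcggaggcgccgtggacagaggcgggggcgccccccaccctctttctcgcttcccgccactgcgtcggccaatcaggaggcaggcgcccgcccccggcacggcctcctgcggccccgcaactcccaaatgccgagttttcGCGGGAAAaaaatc
POLA2: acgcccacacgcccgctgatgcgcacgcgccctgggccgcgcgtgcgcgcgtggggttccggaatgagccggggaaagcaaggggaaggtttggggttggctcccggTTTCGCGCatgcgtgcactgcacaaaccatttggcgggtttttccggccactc
PCNA: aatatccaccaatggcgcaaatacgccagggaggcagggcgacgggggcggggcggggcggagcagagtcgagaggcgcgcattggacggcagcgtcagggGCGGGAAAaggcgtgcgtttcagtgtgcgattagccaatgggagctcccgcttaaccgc
MCM6: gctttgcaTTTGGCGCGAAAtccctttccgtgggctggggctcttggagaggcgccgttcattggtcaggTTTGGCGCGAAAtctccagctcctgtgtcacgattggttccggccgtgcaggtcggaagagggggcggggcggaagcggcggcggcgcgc

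The match begins 42 bases before the start in E2F2, 53 in POLA2 and 59 in PCNA. MCM6 carries the same 8 letters in a pair of copies, 152 and 90 bases before its start, each running into a second match on the other strand. In CDC6, MCM2 and GINS1 the first match lies just past the start, and only the site with 8 bases on each side is shown, at chr17:40287878-40287901, chr3:127598405-127598428 and chr20:25407670-25407693, all on the plus strand.
CDC6: cattcggaTTTGGCGCgagcgcgg
MCM2: gaaccactTTTCGCGCGAAAcctg
GINS1: tttgttcgGCGCCAAAgcgcggag

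Most of the 42 genes were higher in SB-OG. Values are intensities of the brightest probe set of each gene, raised to the background level of their array where lower (32.1 on control-OG, 27.2 on SB-OG). A difference is the log2 value of SB-OG less that of control-OG, so that 1 is 2-fold. Of the 42, 19 were at least 2-fold higher and none was 2-fold lower, and 41 differences were above 0. Of all 12557 genes that passed background on 1 array or both, 12.4% were 2-fold higher, 13.0% were lower and 48.8% were above 0. The median difference of the 42 was 0.97, with quartiles of 0.53 and 1.49, beside -0.02 for all genes, with quartiles of -0.54 and 0.51. The largest member difference was 2.05 (E2F2) and the smallest -0.03 (RFC5), so the genes differed in degree more than in direction. With the mean of all probe sets of a gene, those under background included, 6 of the 19 were short of 2-fold: MCM4 (0.35), GINS2 (-0.14), RFC2 (0.96), CCNE1 (0.94), E2F1 (0.89) and E2F2 (-0.045).

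The only spread available is technical, between probe sets of one gene on the same pair of arrays. Their log2 differences varied by an SD of 0.47, pooled over 4953 genes, and 34 of the 42 members lay further above 0 than that. The other 8 lay within it. This technical SD holds no error between arrays or cultures, so it sets no noise limit for the difference between the conditions. Of the 42, 40 were above background on both arrays, and E2F8 and GINS4 on SB-OG only, so their folds are lower bounds. At 1.5-fold, 28 of the 42 were higher, against 22.3% of all genes.

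**Figure D1:**
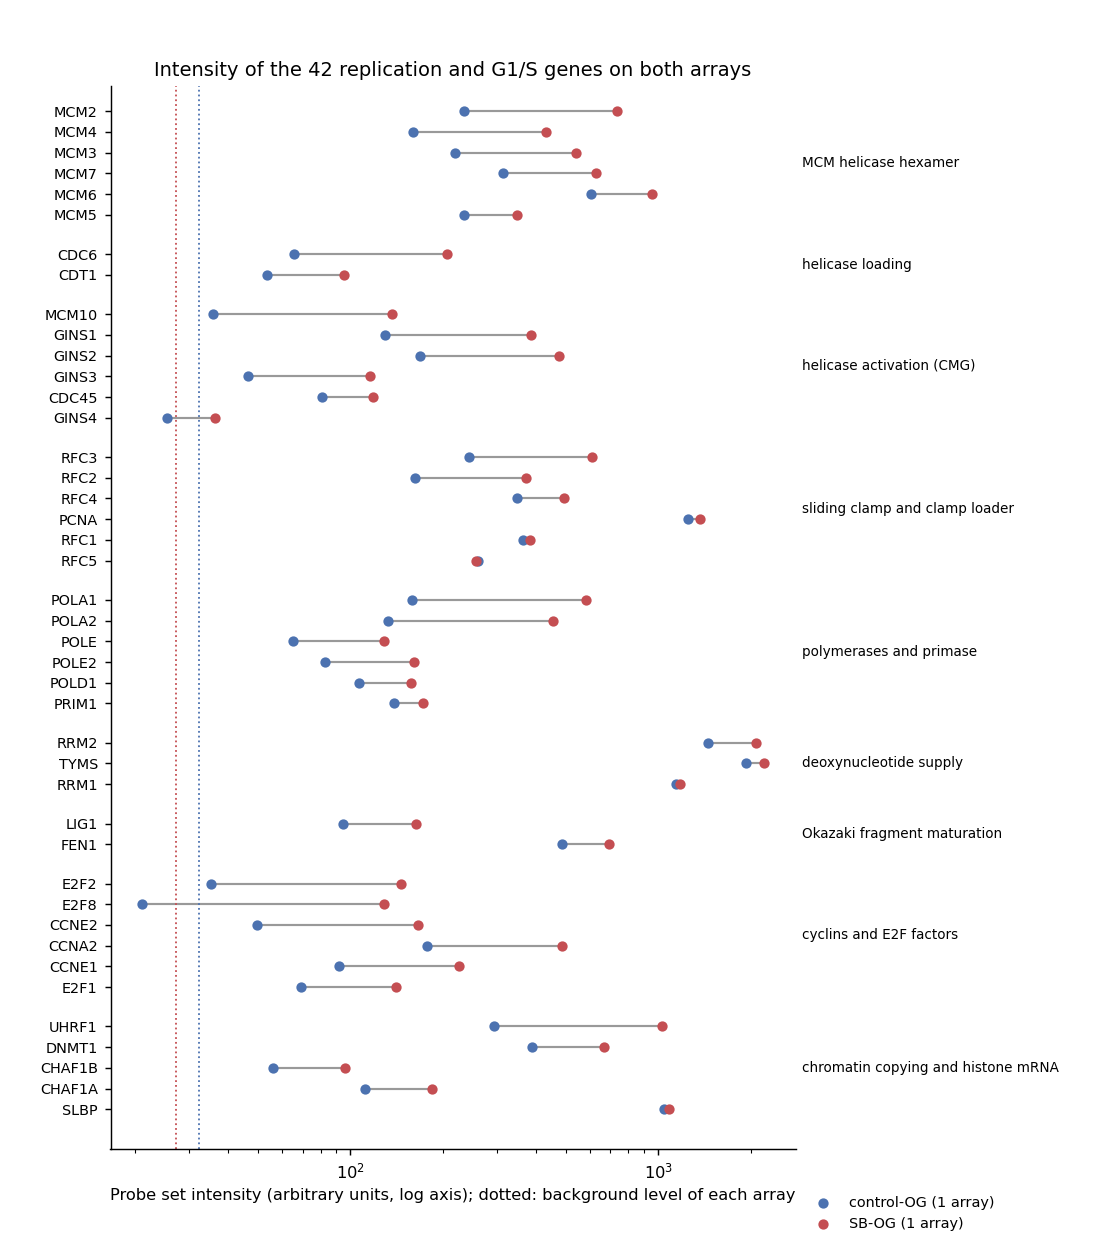
Intensity (arbitrary units, log axis) of the brightest probe set of each of the 42 genes on the control-OG array (blue) and the SB-OG array (red), 1 array each, grouped by role, with the background level of each array dotted. The red point lies to the right of the blue in 41 of 42 genes, and the pairs of PCNA, RFC1, RFC5, RRM1 and SLBP nearly coincide.

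The 6 subunits of the MCM2-7 ring, the helicase that unwinds DNA at the fork, were all higher in SB-OG, with a median of 1.15. The intensity of MCM2 was 233 in control-OG against 734 in SB-OG (3.15-fold). MCM4 went from 159 to 432 (2.71-fold) and MCM3 from 218 to 541 (2.48-fold). MCM7 stood at the threshold, from 314 to 626, a log2 difference of 0.998. MCM6 and MCM5 differed less, at 607 and 955 for MCM6 (1.58-fold) and 233 and 349 for MCM5 (0.58 on the log2 scale). The subunits are needed in equal numbers in the ring, but their RNA signals differed between the arrays by 0.58 to 1.66 on the log2 scale. Part of that range is within genes, since 4 measured probe sets of MCM4 gave 0.39 to 1.44.

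Both genes that load the ring were higher. CDC6, an ATPase that joins the origin recognition complex, went from 65.4 to 207 (3.16-fold), and its second probe set gave 1.45. CDT1, which brings the ring to the origin, went from 53.4 to 95.02 (1.78-fold). Its other probe set, under background on control-OG, gave at least 0.62.

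Of the factors that turn the loaded ring into an active helicase, 4 of 6 were at least 2-fold higher, beside 12.4% of all genes. Their median was 1.41. MCM10, needed to start unwinding, was 35.8 on control-OG, just over background, and 136 on SB-OG (3.80-fold). GINS1 went from 129 to 387 (2.99-fold) and GINS2 from 168 to 475 (2.83-fold). Both encode subunits of the 4-part GINS complex, as does GINS3, at 46.7 and 116 (2.49-fold). The last subunit, GINS4, was near background at 25.4 and 36.4, at least 1.14-fold higher, a bound set by the background level. CDC45, the partner of GINS on the ring, went from 80.8 to 119, a log2 difference of 0.56.

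The clamp and its loader divided. PCNA, the ring that holds polymerases on DNA, was 1253 and 1365, a difference of 0.12 that is under the technical SD. In the loader, RFC3 went from 243 to 609 (2.51-fold) and RFC2 from 163 to 372 (2.29-fold, and 0.72 by its other probe set, short of 2-fold). RFC4 went from 348 to 495, or 0.51. RFC1, the large subunit, was 364 and 385, or 0.08. RFC5 was 260 and 255 by its brightest probe set, the 1 member below 0, while its other probe sets gave 0.68 and 1.14. The RFC5 value therefore depends on the probe set, and that of PCNA rests on 1.

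DNA polymerase α, which with primase lays down the first stretch of each new strand, had the largest differences among the polymerases. Its catalytic subunit gene POLA1 went from 159 to 583 (3.67-fold), and POLA2, its second subunit, from 132 to 456 (3.45-fold). POLE and POLE2, subunits of the leading strand polymerase ε, lay just under the threshold. POLE went from 64.9 to 128 (1.97-fold) and POLE2 from 82.7 to 161 (1.94-fold). POLD1, the catalytic subunit of the lagging strand polymerase δ, went from 107 to 157 (1.47-fold). PRIM1, the primase subunit that works with polymerase α, was 139 and 172, a difference of 0.31. The partners of one complex thus had unlike differences, 1.88 for POLA1 against 0.31 for PRIM1, each read by 1 probe set.

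Genes that supply deoxynucleotides differed least, with a median of 0.20. None of the 3 was at 2-fold, beside 12.4% of all genes, so that count says little. RRM2, the limiting subunit of ribonucleotide reductase, went from 1452 to 2086 (1.44-fold). RRM1, its large subunit, was 1140 and 1182, with 0.05 by this probe set and -0.23 by another. TYMS, the thymidylate synthase gene, was 1934 and 2215, or 0.20. Of the pair that joins Okazaki fragments, the flap nuclease gene FEN1 went from 486 to 692 (0.51, and 1.03 by its other probe set). The ligase gene LIG1 went from 94.5 to 163 (1.72-fold).

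The regulators had a median of 1.60. They were the one role in which every member passed 2-fold, 6 of 6 beside 12.4% of all genes. That count rests on the brightest probe sets and on the scaling, since E2F1 was at 0.89 with quantile normalization, 0.94 with a lowess correction and 0.88 with a pseudocount of 16. The cyclin E genes, whose kinase drives entry into S phase, went from 91.6 to 225 for CCNE1 (2.45-fold) and from 49.6 to 166 for CCNE2 (3.34-fold). CCNA2, the cyclin of S phase and G2, went from 177 to 489 (2.76-fold), with 1.32 by its other probe set. E2F1, an activator, went from 68.9 to 140 (2.04-fold, and 0.76 by its other probe set). E2F2, also an activator, went from 35.4 to 147 (4.14-fold). Its other measured probe set gave -0.08, with an SB-OG signal of 30.4 and a control-OG signal under background, so that the unequal background levels set its sign. E2F8, a repressor that acts late in S phase, was under background on control-OG, at 21.0, and went to 128, a difference of at least 4.003-fold. This bound moves with the background level, and was 1.30 on the log2 scale with background at the 99th percentile in place of the 95th. Activators and a repressor of the family were thus higher on the same array.

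Among genes that copy chromatin with the DNA, UHRF1 stood apart. This protein, which recognises half-methylated DNA behind the fork and recruits the methyltransferase, went from 292 to 1029 (3.53-fold). DNMT1, the methyltransferase itself, went from 390 to 667 (1.71-fold). The histone chaperone subunits CHAF1A, at 111 and 185 (1.66-fold), and CHAF1B, at 56.0 and 95.9 (1.71-fold), differed by a like amount. That of CHAF1A depends on the probe set, since others gave 0.28 and 0.64 on the log2 scale. Its mean over all probe sets, those under background included, gave 0.05. SLBP, which binds the stem-loop of histone mRNA, was 1048 and 1083, a difference of 0.05.

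**Figure D2:**
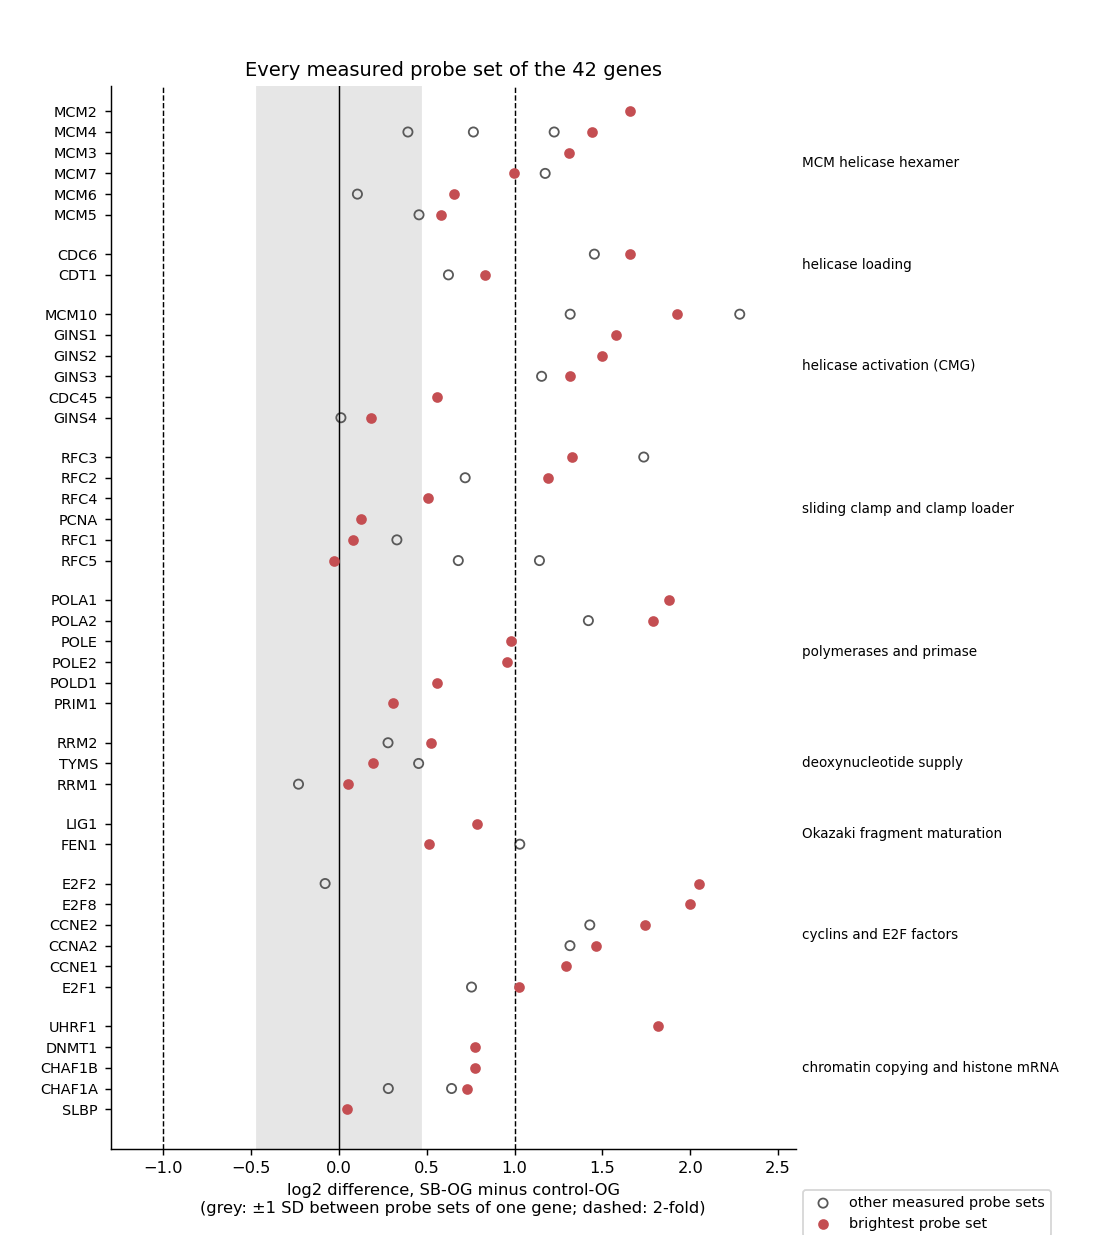
Log2 difference (SB-OG minus control-OG) of each measured probe set of the 42 genes, with the brightest filled and the others open, ±1 SD between probe sets of one gene (0.47) in grey, and 2-fold dashed. Of 70 measured probe sets 67 lie above 0, and the 3 below it belong to RFC5, RRM1 and E2F2. Read by brightest probe set, 48.8% of all genes lie above 0.

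Read by probe set instead of by gene, 70 of the 82 passed background on 1 array or both and 12 did not. Of the 70, 31 were at least 2-fold higher and none 2-fold lower, with a median of 0.81. No such share was counted over all probe sets. Read by brightest probe set, 12.4% of all genes were 2-fold higher. In 23 genes more than 1 probe set was measured, and in 20 of these all were above 0. Those with every measured probe set past 2-fold numbered 7 of the 23, those with only some 7, and those with none 9. The other 19 genes rest on 1 measured probe set.

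None of the 6 members with an intensity of 500 or more on control-OG (MCM6, PCNA, RRM1, RRM2, TYMS and SLBP) was 2-fold higher. Of all genes at such a level 3.48% were, so the count of 6 genes says little. Their median was 0.16, beside -0.21 for all genes at that level. Of the 36 members under 500, 19 were 2-fold higher, beside 15.9% of all such genes. The medians there were 1.11 and 0.06. The limit of 500 was set after the values were seen, and a high control-OG value lowers the difference by construction. Against the mean level over both arrays, the rank correlation of the difference was -0.376 over the 42 members and 0.00595 over all 12557 genes, a description over genes that share the same pair of arrays. Signal depends on the probes as well as on the RNA, so levels of different genes are not compared.

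Members were also divided by the E2F letters at their starts. Of 21 genes with a match, 12 were at least 2-fold higher and their median was 1.31. Of 16 without one, 4 were (RFC2, MCM10, CCNE1 and CCNA2) and the median was 0.54. The ranges overlapped, since TYMS and PCNA hold a match and were at 0.20 and 0.12, and MCM10 holds none and was at 1.93. Among all 663 measured genes with the letters, 15.1% were 2-fold higher and the median was 0.05, beside -0.02 for measured genes without them. Of the 9560 measured genes without them, 12.1% were 2-fold higher.

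**Figure D3:**
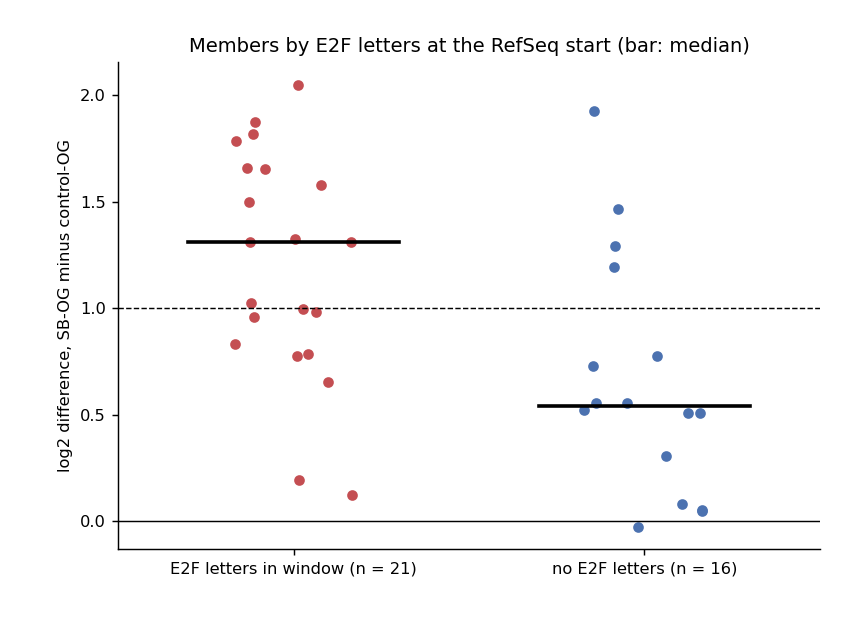
Log2 difference (SB-OG minus control-OG) of the 37 members with a RefSeq window, divided by whether it holds the E2F letters (21 genes) or not (16 genes), with medians as bars at 1.31 and 0.54. The points of both groups overlap over most of their range.

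Other cell cycle genes were read from lists written with earlier results of these data known. Of all measured genes, 12.4% were 2-fold higher and 13.0% were lower. Further genes of origins and forks included 9 of 40 measured that were 2-fold higher and 1 that was lower, with a median of 0.59. The histone chaperone gene NASP went from 461 to 1766 (3.83-fold, and 0.14 to 1.90 by other probe sets). The DDK kinase gene CDC7 went from 68.6 to 225 (3.29-fold) and that of its activator, DBF4, from 132 to 411 (3.12-fold). POLD4, a small subunit of polymerase δ, went the other way, from 433 to 212, a difference of -1.03. Of 14 measured stress and repair genes of S phase, 8 were 2-fold higher and none lower, with a median of 1.03, led by RAD51AP1 (69.6 and 277), BARD1 (57.7 and 209) and CDC25A (40.6 and 143). CDC25A is the phosphatase that activates the G1/S kinases, and its other probe sets gave -0.19 and 0.18. Of 16 other measured nucleotide supply genes, 1 was 2-fold higher (6.25%, under the share of all genes) and none lower, with a median of 0.11. The higher one was the deoxycytidine kinase gene DCK, at 223 and 614.

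Of 45 measured genes of G2 and mitosis, 11 were 2-fold higher (24.4%, beside 12.4% of all genes) and none lower. Above 0 were 43, beside 48.8% of all genes, and the median was 0.72. CDC25B, a phosphatase of mitotic entry, went from 475 to 1871 (3.94-fold), ANLN, a cytokinesis protein, from 362 to 922 (2.55-fold), and the kinase gene AURKA from 468 to 1139 (2.43-fold). Replication and mitosis genes thus both had medians above that of all genes, the mitotic one 0.247 below that of the 42.

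Of 23 measured regulators of G1, 7 were 2-fold higher (30.4%, beside 12.4% of all genes) and none lower, with a median of 0.77. CDC25A is on this list too and is counted here again among the 7. CDK6, a kinase that acts on the retinoblastoma protein, went from 337 to 2520 (7.49-fold), though its 5 other measured probe sets ranged from -0.04 to 3.17. The repressor E2F7 went from 45.5 to 322 (7.08-fold) and CCND3, a D-type cyclin, from 452 to 2337 (5.17-fold). CDK inhibitors and arrest genes went both ways, with a median of 0.60. Of 18, 5 were higher and 4 lower, beside 12.4% and 13.0% of all genes. The forkhead gene FOXO1 went from 88.6 to 798, the p57 gene CDKN1C from 830 to 5679 and BTG1 from 694 to 2367. The p15 gene CDKN2B, a known TGF-β target, went from 730 to 111, GADD45B from 695 to 117 and GADD45A from 3044 to 617. Genes of this mixed list thus lay on both sides, from 3.17 for FOXO1, a transcription factor, to -2.72 for CDKN2B. Of the measured CDK inhibitor genes, CDKN2B alone was below 0. CDKN1A (0.55), CDKN1B (1.39), CDKN1C (2.77), CDKN2A (0.76) and CDKN2D (at least 0.47) were above it.

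**Figure D4:**
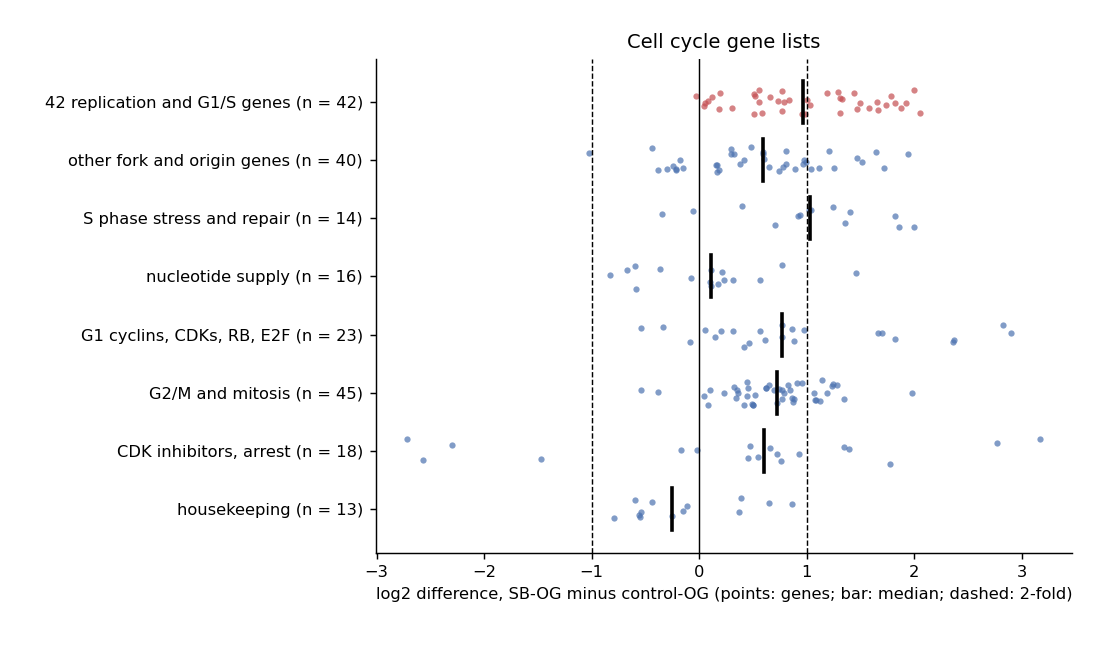
Log2 difference (SB-OG minus control-OG) of each measured gene of the 42 (red) and of 7 other lists (blue), with medians as bars and 2-fold dashed. The medians are 0.97 for the 42 genes, 0.72 for G2 and mitosis, 0.11 for nucleotide supply and -0.25 for housekeeping genes. The mixed list of CDK inhibitors and arrest genes spreads to both sides.

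Cell type markers moved with the condition as well. Of 15 skeletal muscle markers, 13 were 2-fold higher in SB-OG, and their summed intensity went from 532 in control-OG to 66658. MYF5 was under background on both arrays, and MYH8 went from under background to 8392 and TNNI1 from 53.7 to 8620. Of 10 stromal markers 7 were 2-fold lower and 1 higher, with sums of 110544 and 51525. FAP was 2030 and 39.7 and THY1 3408 and 233. Epithelial markers summed to 16568 and 516. Of these, 3 of the 4 measured were lower and 1 higher, while GRHL2, ESRP1, EPCAM and the claudins CLDN3, CLDN4 and CLDN7 were under background on both. KRT19 went from 4918 to below background and KRT8 from 2895 to 56.5. Neural markers, of which 5 of 10 were measured, summed to 6901 and 10795, with 3 higher and 1 lower. SOX1, SOX3, PAX6, OTX2 and ELAVL3 were under background on both. Under background here refers to the brightest probe set. Other probe sets of ESRP1 (0.23 on the log2 scale) and SOX1 (0.38) passed background on at least 1 array. DCX was 32.5 and 1392 and STMN2 2606 and under background. The part of these cell types in the replication gene differences was not tested. In such mixed samples a larger share of cycling cells and more RNA per cycling cell cannot be told apart.

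The median intensity over 54675 probe sets was 22.6 for control-OG and 21.8 for SB-OG. The 3′ over 5′ probe ratio, which grows as RNA degrades, was 0.995 and 0.958 for GAPDH and 1.65 and 1.55 for ACTB. The arrays appear scaled to one level, with a trimmed mean of 150.02 on both, so the differences are relative to the rest of each array. All 18 hybridisation controls, added in equal amounts before hybridisation in this kind of assay, were lower on SB-OG. Scaling on them would move every SB-OG value up by 0.47 on the log2 scale, and scaling on 13 housekeeping genes by 0.25. The share of higher among all genes 2-fold apart would go from 48.8% to 76.8% and 65.2%. The count of members 2-fold higher would go from 19 to 31 and 26 of 42, beside 24.1% and 17.7% of all genes. Relative to other genes, the members' shift is the same under either.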

How the data were processed

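Per the labels, RNA was extracted with a column kit, labelled with biotin and read on Affymetrix arrays, 1 for each condition, each holding RNA of 3 mixed samples. The deposited values are linear intensity values for 54675 probe sets per array, and the summarising software and scaling are not given in the sources used here. Groups were taken from sample titles. No detection calls were used. Gene names come from the 2016 platform annotation, updated by gene ID. Of the probe sets, 41091 named 1 gene, 1801 several and 11721 none, and 62 were controls. Each gene is represented by its brightest probe set, by mean log2 value over both arrays. Background was set, per array, at the 95th percentile over 217 probe sets of 176 genes assumed silent here (olfactory and taste receptors, defensins, late cornified envelope and keratin-associated proteins). With 1 array per condition no test was made, and precision is limited by the number of arrays.

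The members and lists were chosen with earlier results of these data known. All members are named. Of each other cell cycle list, the 3 genes with the largest differences in each direction of at least 2-fold are named. The other measured CDK inhibitor genes were added. Of marker lists, the 2 largest and those under background are named. Alternatives changed the scaling, the probe set per gene, the background level, the floor and the fold threshold. Python 3.11.15, numpy 2.4.6, pandas 2.3.3, statsmodels 0.14.6 and matplotlib 3.10.9 were used.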

Additional observations from a re-analysis of the deposited data

How the results depend on the processing

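No paired analysis was possible because each condition has 1 array. The count of 19 members 2-fold higher was 31 with scaling on hybridisation controls, beside 24.1% of all genes. With a threshold of 3-fold 9 passed and with 1.5-fold 28, beside 6.32% and 22.3% of all genes. Under the other alternatives the 2-fold count lay between 15 of 41 (mean of all probe sets) and 26 of 42 (housekeeping genes). The shares of all genes there were 10.9% to 17.7%. With probe sets specific by name, 16 of 30 were 2-fold higher. No member was 2-fold lower under any of the 13 alternatives. The median of 0.97 became 0.85 with quantile normalization, 1.44 with scaling on hybridisation controls, 1.22 on housekeeping genes, 0.79 with the mean of all probe sets (41 members measured), 1.09 with probe sets specific by name (30 measured) and 0.84 with a pseudocount of 16. It moved by under 0.1 with the lowess correction, centring, genes above background on both arrays only, a 99th percentile background and no floor. With the mean of all probe sets, GINS2 was at -0.14 and E2F2 at -0.045, and 3 of 41 members were below 0. That mean includes probe sets under background. The weak control-OG signals of MCM10, E2F2 and E2F8 limit their folds, and their differences were 1.39, 1.49 and 1.30 with the higher background.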
